A study of Mus musculus with 7 samples.

Results

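Prostaglandins are short-lived lipid signals made from arachidonic acid, and in the brain they are made by vessel cells and microglia, where they act in fever, blood flow and inflammation. The 8 genes described here cover the main steps. Pla2g4a encodes cytosolic phospholipase A2, which frees arachidonic acid from membranes. Ptgs1 and Ptgs2 encode the cyclooxygenases COX-1 and COX-2, which turn it into prostaglandin H2. From there Ptgis makes prostacyclin, Ptges makes prostaglandin E2 and Ptgds makes prostaglandin D2. Slco2a1 encodes a transporter that takes prostaglandins into cells, and Hpgd encodes the dehydrogenase that starts their breakdown. The genes were taken by symbol and make up 8 of the 32285 genes in the count files.

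The series holds 7 droplet single cell RNA libraries of brain microvessels from untreated C57Bl6 mice, an inbred strain. Of these, 3 are labelled 12 months old and 4 are labelled 3 months old. Cells were digested from 1 hemisphere, without cerebellum, brain stem and olfactory bulbs, and caught on beads with an antibody to CD31, a surface protein of endothelial cells. The other cell types described here are therefore those that came along with the vessels. The 12-month libraries have single indexes and came from Cell Ranger 4.0.0, the 3-month libraries have dual indexes and came from 6.1.1, and median UMIs per cell (unique molecular identifiers, 1 per captured RNA molecule) ran from 1094 to 2785 against 3083 to 5331. Age, index type, software version and depth thus cannot be told apart, and each difference between the ages is a difference between these library sets. Nothing in the labels says whether a library is 1 animal, so p-values measure only the spread between these libraries, which may be technical. After filtering, 37135 cells remained (3796 to 8919 per library, total UMIs 8706961 to 44861008), and any pair of libraries shared at most 24 cell barcodes (0.373%).

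Cells were clustered without the 8 genes, the other pathway genes or the naming markers among the clustering genes, and clusters were named from marker lists. The classes used below were 3 kinds of endothelial cell, capillary (17325 cells), arterial (3284) and venous (2154), and 3 other kinds: pericytes, which wrap capillaries (820), smooth muscle cells, which wrap larger vessels (1211), and microglia, the resident macrophages of brain tissue (2642). An endothelial cluster of 1324 cells led by Plvap, Esm1 and Rbp7 had too few raised markers to be named and is called the Plvap-led cluster. The class labelled pericytes carried much endothelial RNA: its summed endothelial markers stood at 8056 to 16600 CPM over the libraries, against 568.4 to 1782 in smooth muscle and 240.8 to 1754 in microglia. Levels are CPM, counts of a gene relative to all UMIs of the same sum, scaled to a common total, where a sum holds the cells of a class in a library. They are compared within a gene, not between genes.

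Ptgs2 and Pla2g4a, on which the results by age turn, lie near each other in the genome. On GRCm38, the build of the files, Ptgs2 (ENSMUSG00000032487) lies on the plus strand at chr1:150100031-150108227 and Pla2g4a (ENSMUSG00000056220) on the minus strand at chr1:149829618-149961290, so they point away from each other. The gap of 138.7 kb holds 3 annotated genes, none of them protein coding. The other genes lie on chromosome 2 (Ptgds at 25466709 to 25470046, Ptges at 30889471 to 30929863, Ptgs1 at 36230426 to 36252272, Ptgis at 167191805 to 167240604), on chromosome 8 (Hpgd at 56294585 to 56321043) and on chromosome 9 (Slco2a1 at 102988712 to 103096002). All but Ptgs2 and Ptgds overlap another annotated feature, and whether counting used the strand of reads is stated in none of the sources used.

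The promoter windows of that pair, 250 bases before to 50 after the start in RefSeq (GRCm38.p6), are shown because both genes were called between the ages in capillaries and smooth muscle, with matches to 6 motifs in capitals. The motifs, searched on both strands, were the TATA box TATAAA, the AP-1 site TGANTCA, the cAMP response element core TGACG, the E-box CACGTG, the GC box GGGCGG and an NF-kB site.
Ptgs2, chr1:150099781-150100080, plus strand: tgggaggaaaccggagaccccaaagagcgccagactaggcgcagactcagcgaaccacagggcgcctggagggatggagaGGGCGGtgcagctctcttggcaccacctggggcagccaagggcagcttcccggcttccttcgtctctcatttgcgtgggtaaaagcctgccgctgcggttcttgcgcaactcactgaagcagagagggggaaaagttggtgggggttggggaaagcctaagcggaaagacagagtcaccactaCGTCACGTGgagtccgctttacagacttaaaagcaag
Pla2g4a, chr1:149961241-149961540, minus strand: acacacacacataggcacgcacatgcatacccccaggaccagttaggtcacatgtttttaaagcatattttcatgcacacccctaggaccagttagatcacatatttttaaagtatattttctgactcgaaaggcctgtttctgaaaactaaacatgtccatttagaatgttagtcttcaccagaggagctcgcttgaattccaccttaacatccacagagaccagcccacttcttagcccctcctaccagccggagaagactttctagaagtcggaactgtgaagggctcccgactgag
The Ptgs2 window held a GC box and, 13 bases after the annotated start, a TGACG match on the other strand that overlaps an E-box in the run CGTCACGTG. Of 27025 promoter windows of this length, 35.9% hold the GC box, 21.0% TGACG and 7.24% the E-box. The Pla2g4a window held none of the 6 motifs, and a second Pla2g4a start had a TATA box on the other strand. The GC content was 59.3% for Ptgs2 and 45.3% for Pla2g4a, against a median of 52.7%. Windows for 7 of the 8 genes were in the table used. These matches describe letters, not binding.

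Each gene had its own place in the vessel preparation. Of all UMIs of Ptgs2 in the cells kept, 65.1% lay in venous endothelial cells, though these were 2154 of 37135 cells. Hpgd lay to 87.2% in microglia, Ptgs1 to 56.4% in microglia and 27.0% in the Plvap-led cluster, and Ptgds to 73.6% in choroid plexus epithelium. Pla2g4a was spread over venous (39.7%) and capillary (35.7%) endothelium, Slco2a1 over venous endothelium (38.1%), the Plvap-led cluster (26.6%) and capillaries (21.4%), and Ptgis over smooth muscle (29.9%), capillaries (22.3%), arterial (19.3%) and venous (18.4%) endothelium. Ptges lay to 53.1% in the numerous capillary cells. These shares follow cell numbers and depth as well as levels, which are given next.

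**Figure D1:**
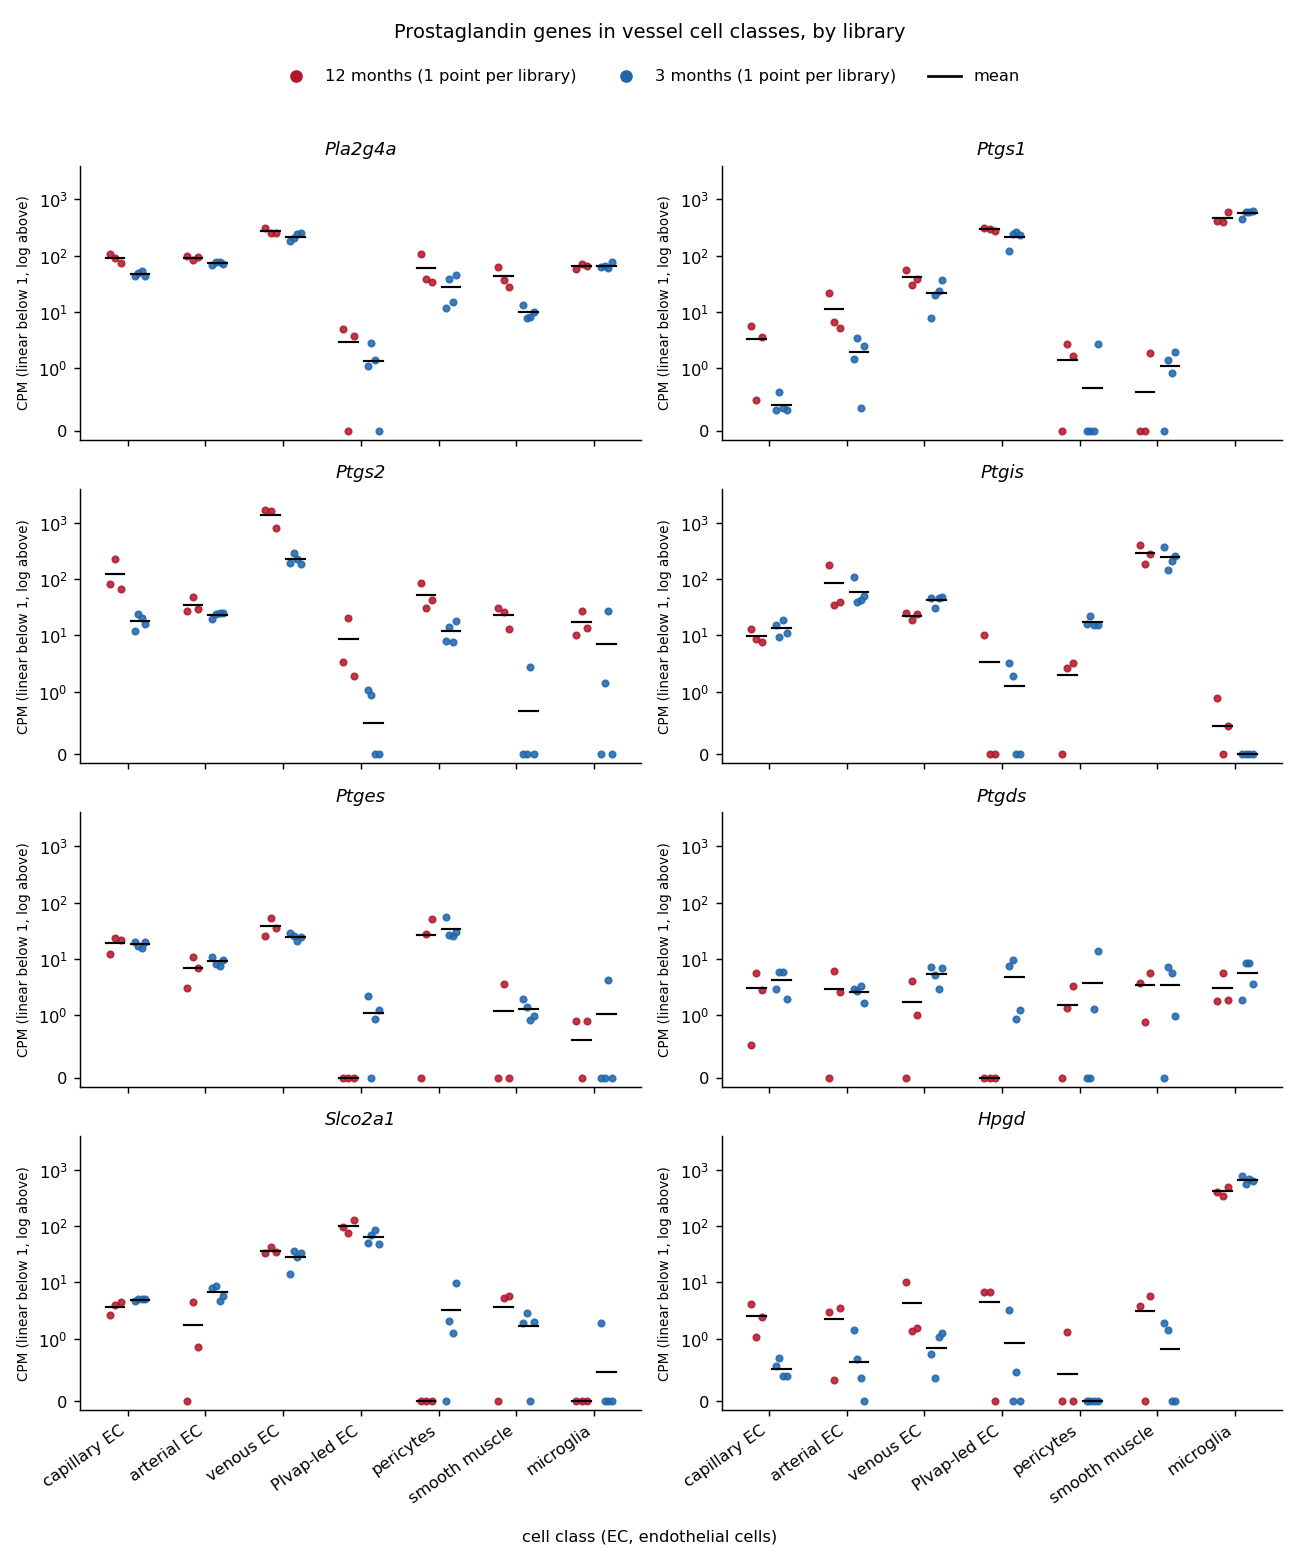
CPM of the 8 genes (vertical axes, linear below 1 and logarithmic above) in 7 cell classes (horizontal axis), 1 point per library, with 12 months in red, 3 months in blue and the mean of each age as a bar. Ptgs2 stands highest in venous endothelial cells, Hpgd and Ptgs1 in microglia, Ptgis in smooth muscle and Slco2a1 in the Plvap-led cluster.

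Pla2g4a, the phospholipase, had its highest level in venous endothelium. It stood there at 305.7, 254.1 and 247.8 CPM in the 12-month libraries and at 181.3, 203.2, 240.5 and 248.5 CPM in the 3-month libraries. The lowest venous value lay above the highest capillary value (105.7 CPM) and the highest arterial value (97.0 CPM), so the venous libraries overlapped neither. Over both ages the level was 65.6 ± 6.46 CPM (SD, n = 7) in microglia and 65.6 ± 25.2 CPM in capillaries. The difference of these classes over both ages did not pass (log2 0.12 ± 0.17 (SE), edgeR adjusted p = 0.554). Within each age, however, they did not overlap. At 12 months microglia held 57.87 to 71.5 CPM, below the 73.69 to 105.7 CPM of capillaries. At 3 months microglia held 59.95 to 76.55 CPM, above the 42.89 to 53.8 CPM of capillaries. The Plvap-led cluster was the endothelial cluster with the lowest level, at 2.01 ± 1.91 CPM from 12 UMIs in all.

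Ptgs1, the cyclooxygenase usually described as constitutive, was a gene of microglia and of the Plvap-led cluster. Microglia held 407.8, 390.5 and 591.2 CPM at 12 months and 449.5, 596.4, 593.3 and 619.5 CPM at 3 months. In the Plvap-led cluster the values were 309.2, 292.2 and 277.7 CPM against 119.4, 244.9, 265.0 and 229.1 CPM, below microglia in each of the 7 libraries. Venous endothelium followed at 30.4 ± 15.5 CPM (n = 7), and capillaries were at 1.64 ± 2.16 CPM. The arterial cluster led by Cytl1 and Fbln5 held 15.28 ± 12.96 CPM and that led by Gkn3 held 2.58 ± 3.60 CPM. Cells with at least 1 UMI made up 50.8% ± 18.4 of microglia at 12 months and 77.7% ± 7.16 at 3 months. Cells with at least 1000 UMIs were also thinned to 1000 UMIs, and shallower cells were left out of all thinned shares. These shares were then 33.6% ± 8.09 and 40.7% ± 4.53, against 0.346% and 0.0744% in capillary cells. In 12-month replicate 1 the median was 1063 UMIs in microglia and 1044.5 in capillaries. Many cells of that library are therefore missing from the thinned shares.

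Ptgs2, the inducible cyclooxygenase and an immediate early gene, was concentrated in venous endothelium. Its venous level was 1695, 1593 and 819.1 CPM in the 12-month libraries and 191.0, 292.3, 226.6 and 188.4 CPM in the 3-month libraries. Within every library the venous value was the highest of the 7 classes in the plot of levels by class, and the lowest venous value at each age lay above the highest capillary value of that age (227.1 and 24.4 CPM). Arterial cells stood at 34.5 ± 11.2 CPM (n = 3) and 23.1 ± 2.51 CPM (n = 4) at 12 and 3 months. Among cells thinned to 1000 UMIs, 44.8% ± 13.5 of venous cells had a Ptgs2 UMI at 12 months and 18.7% ± 3.29 at 3 months. Without thinning these shares were 68.2% ± 22.1 and 68.7% ± 5.42, at median depths of 1760 to 7536 and 9169 to 15528 UMIs per cell. Microglia, thinned alike, had 1.04% and 0.2%. Border macrophages, present in sufficient number only in the 12-month libraries, held 80.0, 456.6 and 171.4 CPM from 139 UMIs in all.

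Ptgis, the prostacyclin synthase, was a gene of smooth muscle and of large-artery endothelium. Smooth muscle held 407.2, 184.7 and 276.1 CPM at 12 months and 367.5, 147.6, 209.3 and 258.0 CPM at 3 months. The ages overlapped. Arterial endothelium stood at 70.1 ± 53.3 CPM (n = 7), and it was made of clusters with different levels: the Cytl1-led arterial cluster, whose other leading genes Fbln5 and Bgn encode matrix proteins, held 194.5 ± 96.4 and 197.9 ± 68.1 CPM at 12 and 3 months, while the Gkn3-led cluster held 34.8 ± 35.6 and 20.8 ± 8.14 CPM. Arterial values of 176.2 CPM in 12-month replicate 1 and 108.5 CPM in 3-month replicate 1 stood above the others, which ran from 34.8 to 50.2 CPM. In 12-month replicate 1 the Cytl1-led cluster supplied 285 of 665 arterial cells.

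Ptges, the inducible prostaglandin E synthase, had class means of at most 43.1 CPM. That highest mean was of the cluster named fibroblasts, on 22 UMIs in all. It held 161.0 CPM in the 1 usable 12-month library and 3.94 to 34.7 CPM at 3 months. Venous endothelium had 25.4, 52.2 and 35.4 CPM at 12 months and 28.4, 25.3, 21.0 and 24.7 CPM at 3 months, and capillaries had 12.0, 23.9 and 21.6 CPM against 19.9, 17.2, 15.9 and 19.9 CPM. The level in the Cytl1-led arterial cluster was 1.35 CPM and that in the Plvap-led cluster 0.617 CPM. Pericytes held 31.0 ± 18.4 CPM (n = 7). Over the pericytes with the lower share of endothelial marker UMIs in each library the level was 71.3 ± 51.1 CPM (n = 6). Left out there for too few cells was 12-month replicate 1, which had 26 pericytes and 0 Ptges UMIs. These means thus cover unlike sets of libraries, and the difference between them was not tested.

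Ptgds, which makes prostaglandin D2 and is also secreted as a carrier protein of the cerebrospinal fluid, was low in vessel cells, at 2.73 to 4.46 CPM on average in the 7 classes of the plot. Choroid plexus epithelium held 2386 and 1833 CPM in 12-month replicates 1 and 2 and 2526 CPM in 3-month replicate 3, the libraries with at least 20 such cells. In the cluster named fibroblasts, which wrap larger vessels and form the meninges, 1 cell of 60 in 3-month replicate 3 carried 816 of 817 UMIs, and 1 of 17 in 12-month replicate 3 carried 400 of 407. An unnamed cluster with glial markers had 577 of its 693 UMIs in 1 of 33 cells of 3-month replicate 1. In these 3 sums nearly all Ptgds UMIs thus came from 1 cell each or, in the last, mostly from 1 cell. Capillary UMIs were few but spread: in 3-month replicate 3, 115 UMIs lay in 108 of 2991 cells.

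Slco2a1, the prostaglandin transporter, marked the Plvap-led cluster and venous endothelium. The cluster held 96.4, 74.8 and 129.5 CPM at 12 months and 50.6, 68.5, 85.5 and 47.8 CPM at 3 months. Venous values were 33.6, 42.1 and 34.4 CPM against 13.8, 36.4, 28.5 and 32.7 CPM, below every value of the Plvap-led cluster. Within capillaries the cluster led by Olfm5 stood highest at 11.3 CPM, against 2.65 to 4.48 CPM in the 4 others with at least 20 cells in every library. Microglia held 1 UMI in all.

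Hpgd, the prostaglandin dehydrogenase, was a gene of microglia. It was found there at 402.4, 335.5 and 496.8 CPM at 12 months and at 765.5, 561.5, 682.2 and 630.2 CPM at 3 months, and the ages did not overlap. Border macrophages held 251.5, 57.8 and 223.5 CPM in the 12-month libraries. Capillary, arterial and venous endothelium had 1.38, 1.32 and 2.32 CPM on average. Of the thinned cells, 32.4% ± 3.96 of microglia at 12 months and 45.7% ± 6.09 at 3 months had an Hpgd UMI, against 0.242% and 0.0320% of capillary cells.

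Along the endothelium, 7 of the 8 genes could be tested between venous and capillary cells, and 6 were higher in veins. Among all 11072 genes tested, 43.2% were called in this comparison and 21.3% were called higher (edgeR, quasi-likelihood test, adjusted p under 0.05). Of the genes that, like these 8, had no part in clustering or naming, 37.7% were called. The largest log2 differences were those of Ptgs1 (4.91 ± 0.26, SE, adjusted p = 7.73e-12) and Ptgs2 (3.63 ± 0.13, adjusted p = 2.98e-14). Slco2a1 was higher by 2.78 ± 0.14 (adjusted p = 2.96e-12), Pla2g4a by 2.01 ± 0.10 (2.58e-12), Ptgis by 1.61 ± 0.12 (6.2e-10) and Ptges by 0.68 ± 0.10 (1.41e-05). Ptgds, at 0.12 ± 0.31, did not pass (adjusted p = 0.791). The median log2 difference was 2.01 over the 7 genes and -0.01 over all genes tested. RNA of the phospholipase, both cyclooxygenases, 2 synthases and the transporter was thus higher in venous than in capillary cells. The clusters behind these classes came from the same cells, so p-values between classes describe how far the classes stand apart relative to the libraries' spread.

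Between arterial and capillary cells 5 of the 8 genes were tested and 4 were called, against 40.2% of all genes and 34.7% of those with no part in clustering or naming. Ptgis was higher in arteries by log2 2.25 ± 0.18 (adjusted p = 7.74e-09) and Pla2g4a by 0.41 ± 0.10 (0.00252). Ptges was lower (-1.15 ± 0.12, adjusted p = 4.15e-07) and so was Ptgs2 (-0.82 ± 0.29, 0.0296), while Slco2a1 did not pass (0.16 ± 0.27, 0.675). With doublets kept, Slco2a1 passed (1.48 ± 0.18, adjusted p = 1.91e-06), at 7.74 CPM in arterial and 2.9 CPM in capillary cells. The Ptgs2 call was lost without 12-month replicate 2 (-0.27, edgeR adjusted p = 0.355) and without 12-month replicate 3 (-0.72, 0.103). It was also lost with DESeq2 (-0.47, adjusted p = 0.437), at resolution 1.0 of the clustering (-0.42, 0.272) and with a capillary-like cluster led by hemoglobin genes counted as capillary (-0.64, 0.0739). At 3 months the arterial mean of Ptgs2 (23.1 CPM) lay above the capillary mean (18.2 CPM), and at 12 months below it (34.5 against 124.8 CPM). Pla2g4a lost its call with doublets kept (0.10, adjusted p = 0.309).

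Venous and arterial cells differed in all 6 genes tested, 5 higher in veins and 1 in arteries, where 43.1% of all genes and 36.8% of those with no part in clustering or naming were called. Ptgs2 (4.25 ± 0.27, adjusted p = 9.31e-10), Slco2a1 (2.74 ± 0.27), Ptgs1 (2.72 ± 0.25), Ptges (1.88 ± 0.16) and Pla2g4a (1.6 ± 0.07) were higher in veins. Ptgis was lower in veins (-0.68 ± 0.21, adjusted p = 0.0159), and this call was lost without 3-month replicate 1 (-0.58, 0.0628) and with doublets kept (-0.23, 0.426). On this axis the cyclooxygenases and the prostaglandin E synthase thus stood at the venous end. The higher arterial Ptgis came from the Cytl1-led cluster (196.4 ± 73.6 CPM, n = 7). In the Gkn3-led cluster, 2543 of the 3284 arterial cells, Ptgis stood at 26.8 ± 22.6 CPM, against 34.15 ± 12.6 CPM in venous cells.

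**Figure D2:**
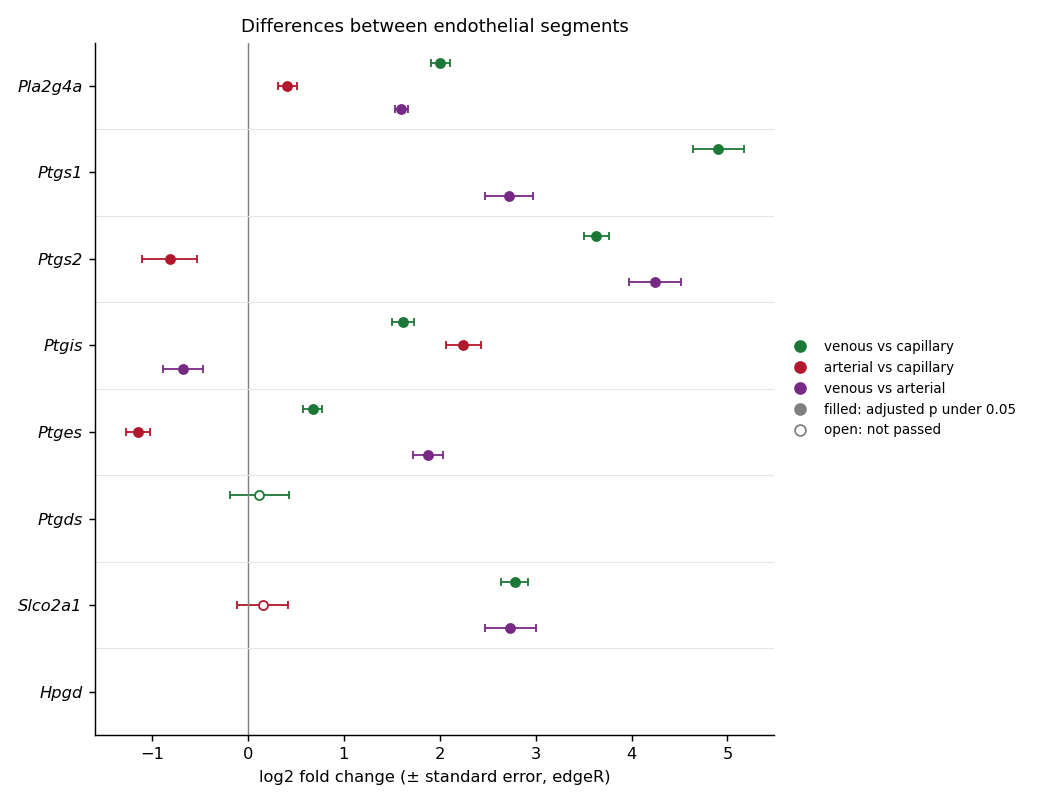
Log2 fold changes (horizontal axis, points with standard errors, edgeR over 7 libraries) of each gene (vertical axis) between venous, arterial and capillary endothelial cells. Filled points passed an adjusted p of 0.05. Ptgs1 and Ptgs2 lie farthest to the right in the venous against capillary comparison, and Ptgis is the gene with a positive arterial and a negative venous against arterial difference.

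Among the capillary clusters Ptgs2 was not evenly spread. The cluster led by Cyp2e1 and Aldh1a1 held 208.7 ± 132.3 CPM at 12 months and 29.7 ± 8.01 CPM at 3 months, while the clusters led by Unc5b, Olfm5, Ivns1abp and the interferon-induced Ifit2 held 25.6 to 41.6 CPM and 5.74 to 11.1 CPM on average. Of the 4201 capillary Ptgs2 UMIs, 3662 came from the Cyp2e1-led cluster. Among the 5 capillary clusters with at least 20 cells in every library it also had the highest means of Pla2g4a (85.0 CPM over 7 libraries), Ptgis (21.6 CPM) and Ptges (21.2 CPM). Fos stood at 3654 and 990.8 CPM in it and at 6879 and 1905 CPM in the Olfm5-led cluster, whose leading genes include Fos. There Ptgs2 held 29.3 ± 12.7 and 5.74 ± 3.36 CPM. Of the immediate early genes listed, Ier3 alone was higher in the Cyp2e1-led than in the Olfm5-led cluster. It stood at 1397 and 631.9 CPM against 1101 and 545 CPM at 12 and 3 months.

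**Figure D3:**
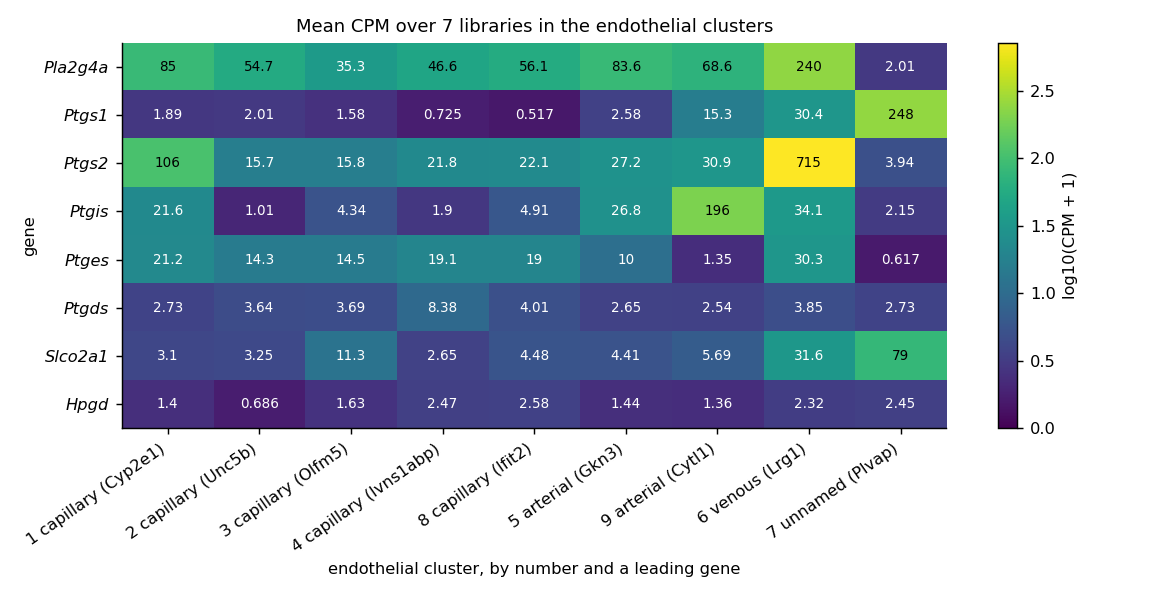
Mean CPM over 7 libraries, printed and shaded on a log10(CPM + 1) scale, of the 8 genes (rows) in 9 endothelial clusters (columns, named by number, class and a leading gene). The venous cluster holds the highest Ptgs2 (715.2) and Pla2g4a (240.1), the Cytl1-led arterial cluster the highest Ptgis, and the Plvap-led cluster the highest Ptgs1 (248.2) and Slco2a1 (79.0).

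In the mural cells, 2 of the 8 genes passed the low-count filter between smooth muscle and pericytes, and both were called, where 50.4% of all genes and 44.0% of those with no part in clustering or naming were. Ptgis was higher in smooth muscle by log2 4.56 ± 0.24 (edgeR adjusted p = 9.52e-13), with 147.6 to 407.2 CPM against 0 to 22.4 CPM and no overlap. Pla2g4a was lower in smooth muscle (-0.66 ± 0.27, adjusted p = 0.0495), a call lost without any 1 of 5 libraries, with other size factors (-0.61, 0.0745) and with DESeq2 (-0.63, 0.135). Among the cells with the lower share of endothelial marker UMIs in each library the order was the other way, at 22.5 CPM in smooth muscle and 5.98 CPM in pericytes, where too few UMIs were left for a test. Between pericytes and capillaries 4 genes were tested and 3 called, against 28.5% of all genes and 22.5% of those with no part in clustering or naming. Ptgs2 (-1.40 ± 0.28, adjusted p = 2.56e-04) and Pla2g4a (-0.88 ± 0.18, 4.10e-04) were lower in pericytes and Ptges was higher (0.76 ± 0.18, 0.00205), a call lost when the sums were thinned to equal depth (0.86, 0.334). Over the pericytes with the lower share of endothelial marker UMIs, Ptgs2 fell to 1.62 CPM, Pla2g4a to 5.98 CPM and Ptgis to 0 CPM, and the differences from capillaries grew to -5.25 ± 0.54 and -3.05 ± 0.42 for Ptgs2 and Pla2g4a. The levels of those 3 genes in pericytes thus moved with endothelial RNA, and Ptges moved the other way.

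Microglia and capillaries differed in 5 of the 6 genes tested, where 70.2% of all genes and 66.6% of those with no part in clustering or naming did. Hpgd (log2 9.31 ± 0.32, edgeR adjusted p = 1.06e-13) and Ptgs1 (9.20 ± 0.37, 5.92e-13) were higher in microglia. Ptgis (-4.85 ± 0.47), Ptges (-4.31 ± 0.41) and Ptgs2 (-2.31 ± 0.33) were lower. Microglial Ptgis and Ptges rested on 2 and 5 UMIs in all.

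In capillary cells 7 of the 8 genes were tested between the ages, and 3 were higher at 12 months, where 4.51% of all genes were called and 3.34% were called higher. The 3 calls were Ptgs2, Pla2g4a and Hpgd, and none was lower. Capillary Ptgs2 stood at 80.7, 227.1 and 66.6 CPM at 12 months and at 11.9, 24.4, 20.7 and 15.8 CPM at 3 months. The ages did not overlap, and the log2 difference was 2.91 ± 0.39 (SE, edgeR adjusted p = 0.00142). Without 12-month replicate 2, the library with the highest value, it was 2.09. Pla2g4a was at 105.7, 91.6 and 73.7 CPM against 43.0, 48.7, 53.8 and 42.9 CPM, again without overlap (1.05 ± 0.16, adjusted p = 0.00273). With replicate number as a term in the fit, the Pla2g4a call was lost (0.93, edgeR adjusted p = 0.0622). The 8 venous endothelial markers, summed over the same capillary cells, also stood apart by age, at 798.9 to 1837 CPM against 440.4 to 708.5 CPM, and their part in these differences was not tested. The median over the 7 genes was 0.29 and over all genes 0.02. Ptges (0.29 ± 0.19, adjusted p = 0.489), Ptgis (-0.46 ± 0.27, 0.422) and Slco2a1 (-0.20 ± 0.22, 0.711) did not pass.

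Capillary Hpgd differed at a far lower level. It was at 4.16, 1.07 and 2.37 CPM at 12 months and at 0.563, 0.681, 0.405 and 0.404 CPM at 3 months, from 69 UMIs in all (log2 2.12 ± 0.48, adjusted p = 0.0271). Microglial marker RNA in the capillary sums moved with it: the 9 markers summed to 78.5 to 208 CPM at 12 months and to 40.2 to 55.6 CPM at 3 months. Per 1000 of these marker UMIs, capillaries held 11.6 to 20.0 Hpgd UMIs at 12 months and 9.31 to 14 at 3 months, and microglia themselves held 10.6 to 14.9 and 14.7 to 21.0. The ranges of capillaries and microglia overlapped at 12 months, and at 3 months every capillary value lay below every microglial one. The part of microglial RNA in the capillary Hpgd difference was not tested. Capillary Ptgs1 gave 6.2 to 27.5 and 8.12 to 11.2 per 1000 marker UMIs, against 12.3 to 17.8 and 12.3 to 17.0 in microglia. Venous Ptgs1 gave 332 to 611 and 175 to 974, above every microglial value. The Hpgd call was lost without 12-month replicate 1 or 3 or without 3-month replicate 3 or 4 (edgeR adjusted p = 0.0736 to 0.128). It was also lost with replicate number as a term in the fit (1.97, edgeR adjusted p = 0.17).

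In venous cells 1 of 7 genes tested was called between the ages, where 2.49% of all genes were. This was Ptgs2, higher at 12 months by log2 2.71 ± 0.27 (edgeR adjusted p = 6.42e-05), and its venous values, given above, did not overlap between the ages. Ptgis had lower values at 12 months without overlap, at 24.5, 18.5 and 23.8 CPM against 47.0, 31.2, 46.2 and 47.9 CPM, but did not pass (-0.89 ± 0.22, adjusted p = 0.0526). It passed with DESeq2 (adjusted p = 0.0288), no filter (0.00476), at least 1000 genes per cell (0.0294) and resolution 1.0 (0.0451), and without 3-month replicate 1 (0.0221) or 2 (0.0136). Ptges (0.76 ± 0.24, adjusted p = 0.149), Ptgs1 (0.96 ± 0.34, 0.216) and Pla2g4a (0.40 ± 0.19, 0.402) did not pass either. The median over the 7 genes was 0.52, against -0.02 over all genes.

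In arterial cells none of the 6 genes tested was called by edgeR, where 0.418% of all genes were, and 4 had an unadjusted p under 0.05, against 7.7% of all genes. The DESeq2 Wald test called 1, Ptgs1 (log2 2.48 ± 0.63, adjusted p = 0.0129), for which edgeR gave 2.29 ± 0.60 and an adjusted p of 0.166, or 1.1e-04 with no filter. Arterial Ptgs1 was at 21.8, 6.48 and 5.19 CPM at 12 months and at 1.44, 3.36, 0.361 and 2.49 CPM at 3 months, without overlap. The microglial markers in the arterial sums were at 73.3 to 213 CPM and 41.7 to 65.6 CPM, again without overlap. Per 1000 of these marker UMIs arterial cells held 24.4 to 102 Ptgs1 UMIs at 12 months and 5.5 to 70.9 at 3 months. Microglia held 12.3 to 17.8 and 12.3 to 17.0. The Cytl1-led arterial cluster held 27.0 ± 7.89 and 6.45 ± 7.22 CPM of Ptgs1 at 12 and 3 months, the Gkn3-led one 4.9 ± 4.94 and 0.847 ± 0.529 CPM. The part of microglial RNA or of these clusters was not tested. Arterial Ptgs2 was at 26.7, 47.4 and 29.4 CPM at 12 months and at 19.4, 23.6, 24.9 and 24.5 CPM at 3 months. These ages did not overlap, and the difference was log2 0.67 ± 0.23 (adjusted p = 0.367). Tested directly, the age difference of Ptgs2 was smaller in arterial than in capillary cells by log2 2.20 ± 0.23 (adjusted p = 1.35e-05), and that of Pla2g4a by 0.63 ± 0.12 (0.00923). These were 2 of 7 genes tested, and 1.01% of all genes were called in that test.

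The same test of venous against capillary cells gave no call for Ptgs2, whose age differences in the 2 classes were apart by -0.12 ± 0.21 (edgeR adjusted p = 0.83). It called 2 of 8 genes, against 2.97% of all genes. The age difference was smaller in venous cells for Pla2g4a (-0.64 ± 0.12, adjusted p = 0.00218) and for Ptgs1 (-1.72 ± 0.48, 0.0463). Capillary Ptgs1 rested on 71 UMIs. Per 1000 microglial marker UMIs it gave 6.2 to 27.5 at 12 months and 8.12 to 11.2 at 3 months. The part of microglial RNA in the Ptgs1 difference was not tested. The Pla2g4a calls were lost without 12-month replicate 2 in both tests (-0.49, adjusted p = 0.208 for arterial and -0.56, 0.0634 for venous cells), and the Ptgs1 call without 12-month replicate 1 or 3 or 3-month replicate 3 or 4 (adjusted p = 0.113 to 0.418). In the arterial test Pla2g4a was also lost with doublets kept (-0.32, adjusted p = 0.303), at resolution 1.0 (-0.57, 0.0774), with thinned sums (-0.65, 0.0557) and with the hemoglobin-led cluster counted as capillary (-0.54, 0.0547).

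**Figure D4:**
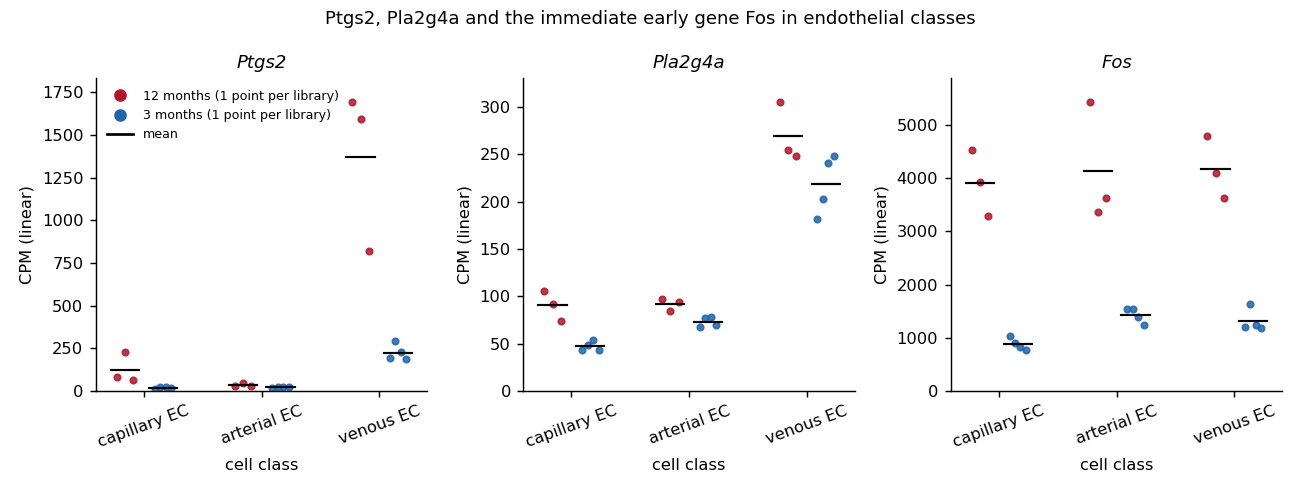
CPM (vertical axes, linear from 0) of Ptgs2, Pla2g4a and the immediate early gene Fos in capillary, arterial and venous endothelial cells (horizontal axes), 1 point per library, red for 12 months and blue for 3 months, bars for means. The 12-month points of Ptgs2 and Fos lie above the 3-month points in each class with no overlap, and Pla2g4a has no overlap in capillary and arterial cells and overlaps in venous cells.

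Ptgs2 was also called higher at 12 months in both mural classes. In pericytes it was 1 of 3 genes tested, where 1.62% of all genes were called, at 87.0, 30.3 and 42.3 CPM against 7.85, 14.3, 7.65 and 17.7 CPM with no overlap (log2 1.67 ± 0.38, edgeR adjusted p = 0.0292). That call rested on 81 UMIs and was lost without 12-month replicate 3 (1.55, adjusted p = 0.415) and without 3-month replicate 3 (1.44, 0.159). With endothelial RNA in these cells, whether the difference lies in pericytes was not tested: over the pericytes with less of it, Ptgs2 had too few UMIs to be tested. The makeup of the class also differed by age without overlap. Its 8 pericyte markers summed to 16140 to 27740 CPM at 12 months and 10070 to 13650 CPM at 3 months, and its 9 endothelial markers to 8056 to 12920 CPM and 13660 to 16600 CPM. In smooth muscle 2 of 3 genes tested were called, against 0.152% of all genes. Smooth muscle Ptgs2 was at 30.2, 25.9 and 13.1 CPM against 0, 0, 2.74 and 0 CPM, which is 3 UMIs over the 3-month libraries (fitted log2 4.68 ± 0.68, adjusted p = 0.00206), and Pla2g4a was at 64.1, 36.6 and 28.0 CPM against 13.4, 7.77, 8.23 and 9.81 CPM (2.06 ± 0.34, 0.0111). Neither gene overlapped between the ages, but both calls were lost without 12-month replicate 2 (adjusted p = 0.115 and 0.0853), and that of Pla2g4a also without 12-month replicate 1 (0.116) and 3-month replicate 4 (0.0569).

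In microglia none of the 3 genes tested differed by age in edgeR or DESeq2, where edgeR called 1.92% of all genes, and 1 had an unadjusted p under 0.05, against 11.5% of all genes. That was Hpgd, whose lower values at 12 months, given above, did not pass (log2 -0.58 ± 0.21, adjusted p = 0.227). Ptgs1 (-0.18 ± 0.21, adjusted p = 0.809) and Pla2g4a (0.02 ± 0.22, 0.996) did not pass.

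**Figure D5:**
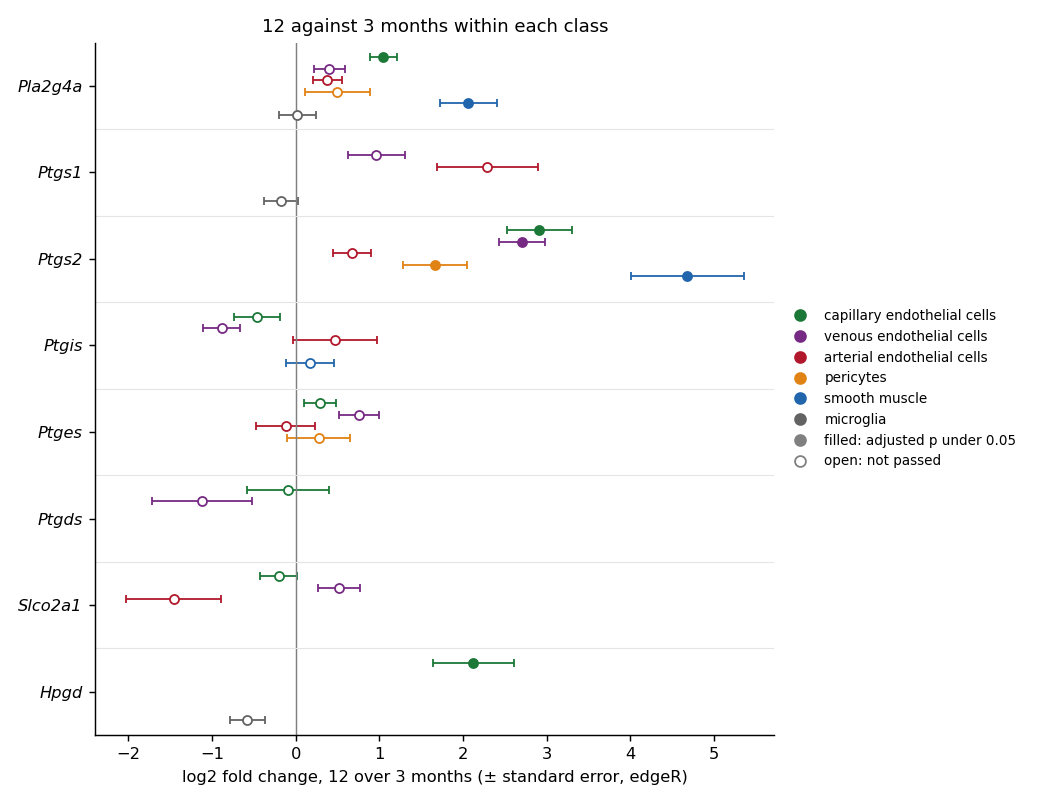
Log2 fold changes of 12 over 3 months (horizontal axis, points with standard errors, edgeR, n = 3 and n = 4 libraries) of each gene (vertical axis) in 6 classes given by color. Filled points passed an adjusted p of 0.05: Ptgs2 in 4 classes, Pla2g4a in capillaries and smooth muscle, and Hpgd in capillaries.

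Immediate early genes, which cells switch on within minutes of stimulation or handling, were also called higher at 12 months. Of 12 such genes these were 9 in capillaries (against 3.34% of all genes), 7 in venous cells (2.09%), 4 in arterial cells (0.369%), 4 in pericytes (1.2%), 3 in microglia (1.65%) and 1 in smooth muscle (0.105%), and none was called lower. The median log2 difference of the 12 was 1.39 in capillaries, 1.04 in venous cells and 0.75 in arterial cells. It was 0.6 in microglia, 0.46 in smooth muscle and -0.01 in pericytes. For Ptgs2 the difference was 2.91 in capillaries, 2.71 in venous cells and 0.67 in arterial cells, where it was not called. In smooth muscle it was 4.68 and in pericytes 1.67. Capillary Fos, an AP-1 subunit, stood at 3917 ± 625.8 CPM (n = 3) against 879.6 ± 117.8 (n = 4; log2 2.28 ± 0.20, edgeR adjusted p = 8.55e-05), and Atf3, a stress-induced factor, at 1088 ± 740.6 against 84.98 ± 11.1 (3.79 ± 0.36, 1.53e-04). Venous Atf3 stood at 1262 ± 318.5 against 107.8 ± 16.1 (3.64 ± 0.25, 2.28e-06). In the test of the age difference between arterial and capillary cells, 9 of the 12 were lower in arterial cells, against 0.806% of all genes. In that between venous and capillary cells 3 of the 12 were lower in venous cells, against 1.54% of all genes, and Ptgs2 was not called. In venous against capillary cells 8 of the 12 were higher, against 21.3% of all genes, Ier3 by 1.5 ± 0.08 and Zfp36 by 1.09 ± 0.06. Other classes against capillaries did not all go with Ptgs2, which was called lower in each. Microglia had 6 of the 12 higher and 1 lower (33.1% and 37.1% of all genes). Arterial cells had 4 higher and 3 lower (21.8% and 18.4%), and pericytes 0 higher and 8 lower (14.3% and 14.1%). The part of digestion time or handling in the age differences of Ptgs2 was not tested.

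A list of other genes of the pathway held 46 that are in the count files. Between microglia and capillaries 28 were tested, of which 15 were higher and 9 lower in microglia, where 70.2% of all genes were called. Higher were Tbxas1, the thromboxane synthase (140.7 ± 33.0 against 0.306 ± 0.477 CPM, log2 8.99 ± 0.26), Alox5ap, which presents arachidonic acid to 5-lipoxygenase (297.1 ± 73.9 against 1.28 ± 1.18, 8.47 ± 0.28), and Pla2g15 and Daglb, a lysosomal phospholipase and a diacylglycerol lipase (5.08 ± 0.12 and 4.23 ± 0.12). Between venous and capillary cells 25 were tested, with 4 higher and 7 lower in veins, where 43.2% of all genes were called. Acsl4, which activates arachidonic acid for return to membranes, was higher (97.0 ± 17.7 against 24.6 ± 5.39 CPM, log2 2.04 ± 0.06). Mgll, which breaks down the endocannabinoid 2-arachidonoylglycerol, was lower (20.2 ± 3.75 against 81.4 ± 10.1, -1.90 ± 0.08), as were the organic anion carriers Slco1c1 (-1.90 ± 0.08) and Slc22a8 (-0.69 ± 0.07). Slco1c1 was among the capillary markers used to name the clusters, so its lower venous level was favored by the naming.

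Between arterial and capillary cells 7 of 25 pathway genes were higher and 8 lower, where 40.2% of all genes were called. Alox12, a lipoxygenase, was higher in arteries (75.0 ± 24.9 against 19.8 ± 6.85 CPM, log2 2.00 ± 0.09), and so was Mgll (147.5 ± 11.6 CPM, 0.92 ± 0.07). Slc22a8 (-2.16 ± 0.10) and Slco1a4 (-1.07 ± 0.07) were lower. Slco1a4, like Slco1c1, was among the naming markers, in its case of endothelium as a whole. Between smooth muscle and pericytes 6 of 18 were higher and 8 lower, where 50.4% of all genes were called. Anxa1, an inhibitor of phospholipase A2, was higher in smooth muscle (81.1 ± 37.6 against 4.42 ± 3.75 CPM, 3.89 ± 0.26), and the 3 carriers Slc22a8, Slco1c1 and Slco1a4, which stood at 399.0, 1352 and 2025 CPM in capillaries, were lower. Between pericytes and capillaries 3 of 21 were higher and 5 lower, where 28.5% of all genes were called. Slco3a1, a relative of Slco2a1 (135.9 ± 55.4 against 0.417 ± 0.179 CPM, 8.25 ± 0.20), and Tbxa2r, the thromboxane receptor (129.6 ± 59.3 against 13.9 ± 6.19, 3.35 ± 0.14), were higher in pericytes. Tbxa2r and Mgll were also high in the Plvap-led cluster, at 255.7 and 1576 CPM, which was seen after their values were known.

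By age, the calls among the other pathway genes were 2 of 29 tested in capillaries (against 4.51% of all genes), 1 of 18 in pericytes (1.62%) and 0 of 28, 23, 20 and 22 in arterial cells, venous cells, smooth muscle and microglia. The pericyte call was Slco3a1, at 184.5 ± 47.5 against 99.4 ± 22.3 CPM (log2 0.94 ± 0.24, edgeR adjusted p = 0.0477), and the part of the makeup of the pericyte class, given above, was not tested. Their median log2 difference was 0.10 in capillaries and 0.00 in venous cells. The medians given above, over the 7 of the 8 genes that were tested in each class, were 0.29 and 0.52.

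Across 64 sums of 12 classes and 7 libraries, the genes whose log2(CPM + 1) ran most like each of the 8 were found by Pearson's r among 9836 genes, as a description over sums that share libraries and depth. Hpgd ran with the myeloid genes Fcgr1 (r = 0.916), Cd33 (0.908) and Aif1 (0.900). Ptgs2 ran with Ch25h (0.820), a cholesterol hydroxylase, Klf4 (0.778) and the venous gene Lrg1 (0.772). Ptgs1 ran with Tpbgl (0.869), Abcc3 and Sh2b2, and Pla2g4a with Adam15 (0.832), Mtus1 and Smad1. For Ptgis the nearest were Etnk2 (0.80), Myl6 and Lama5, for Ptges Nsg1 (0.85), Adgrl3 and Wnt5a, for Ptgds Snap91 (0.803), Slc13a4 and Steap1, and for Slco2a1 Adgrg6 (0.732), Grem1 and Rims2. With log2(CPM + 10), all 3 genes were the same for Ptgs1, 2 of 3 for Ptgs2 and Slco2a1, 1 of 3 for Ptgis, Ptges, Ptgds and Hpgd, and 0 of 3 for Pla2g4a.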

How the data were processed

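The authors deposited filtered gene by cell count matrices (UMI counts, whole numbers, not normalized) for 7 libraries. Cell Ranger 4.0.0 (12 months) and 6.1.1 (3 months) made them, per the file headers, with build mm10, per the submitters' processing notes. Cells with at least 500 genes and at most 15% mitochondrial UMIs were kept, and doublets marked by Scrublet (scanpy 1.11.5), at an expected 0.8% per 1000 barcodes, were removed. Total UMIs ran from 8706961 to 44861008 per library, so low levels in the shallower libraries are the less precise. Seurat 5.3.0 (R 4.3.3; 2000 variable features, 30 components, resolution 0.5) clustered all cells and then endothelial cells. Clusters were named from markers.

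UMIs were summed per class and library (at least 20 cells) and tested with edgeR 4.0.16 (quasi-likelihood, TMM, filter on low counts; Benjamini-Hochberg adjustment over all genes tested, threshold 0.05). Fits between classes had library as a term, and those between ages did not use replicate numbers. Scripts were tested on simulated data. DESeq2 1.42.0, other size factors, no filter, doublets kept, at least 1000 genes per cell, resolution 1.0, thinned sums, a replicate block, mural cells with less endothelial RNA and each library left out were alternatives. Intervals and floors cover counting error only. Not every same-numbered pair of libraries of the 2 ages deviated together in every class, so numbers were not taken as pairs.

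The 8 genes and the lists were chosen with earlier results of these data known. Other pathway and immediate early genes were named by rule: per comparison, at most 4 of each kind that passed, with the smallest p and at least 20 CPM in 1 group. No column of per-sample values was left unused.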

Additional observations from a re-analysis of the deposited data

Results flagged for a closer look

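Among 47 groups of 4 libraries tested with Dixon's criterion, 12 had 1 library apart from the other 3. The criterion flags about 1 in 20 groups by chance where values are normally distributed. Several flagged groups rest on few UMIs with 0 CPM in other libraries, where that rate does not hold. The 12 flags are therefore a description and cannot be read as more than chance gives. All are 3-month groups, since the 12-month groups hold 3 libraries. Replicate 1 stood apart in Ptgis of arterial cells (108.5 CPM, against 38.7 to 50.2), Ptges of pericytes (54.95 CPM, 14 UMIs) and Ptgs1 of microglia (449.5 CPM, the lowest, against 593.3 to 619.5). Replicate 2 stood apart in Ptgis of venous cells (31.2 CPM, the lowest) and of pericytes (22.4 CPM, 11 UMIs), in Ptgs1 of capillaries (0.6245 CPM, 11 UMIs), and in Hpgd (76.4 CPM, 22 UMIs) and Pla2g4a (45.1 CPM, 13 UMIs) of fibroblasts. Replicate 3 stood apart in Ptgs2 of microglia (26.9 CPM, 13 UMIs) and Ptgds of fibroblasts (2885 CPM, nearly all from 1 cell). Replicate 4 stood apart in Ptgds of pericytes (13.6 CPM, 10 UMIs) and Ptgis of fibroblasts (27.6 CPM, 7 UMIs).

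The age difference itself differed between vessel segments in 4 tests with edgeR. Against capillaries it was smaller in arterial cells for Ptgs2 (log2 -2.20, adjusted p = 1.35e-05) and Pla2g4a (-0.63, 0.00923), and smaller in venous cells for Pla2g4a (-0.64, 0.00218) and Ptgs1 (-1.72, 0.0463).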

How the results depend on the processing

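Of 37 calls of the 8 genes, 27 held with each library left out. Under the other alternative runs that could test the gene 28 held, 24 held under all of both kinds, and 0 reversed. Runs that gave the gene no adjusted p were not counted. Among these were, by age, Ptgs2 in pericytes and smooth muscle and Pla2g4a in smooth muscle with less endothelial RNA or thinned sums. The counts of genes called moved as follows. For smooth muscle against pericytes (2), leaving out 1 library gave 1 to 3, other size factors, DESeq2, mural cells with less endothelial RNA and thinned sums (1 gene tested in both) gave 1 each, and no filter gave 4. For pericytes against capillaries (3), pericytes with less endothelial RNA gave 5. By age, arterial cells (0) gave 1 with DESeq2 and 1 with no filter. Venous cells (1) gave 1 to 3 with 1 library left out, 2 with DESeq2, at least 1000 genes per cell or resolution 1.0, and 4 with no filter. Pericytes (1) gave 0 to 2 with 1 library left out, 0 with DESeq2 (which gave Ptgs2 no adjusted p), less endothelial RNA or thinned sums (where no gene of the 8 could be tested), and 2 with no filter. Smooth muscle (2) gave 0 to 2 with 1 library left out, 1 with at least 1000 genes per cell, and 0 with less endothelial RNA or thinned sums, where 1 gene of the 8 could be tested and it was neither Ptgs2 nor Pla2g4a (with less endothelial RNA these stood at 20.4 against 0 and 40.5 against 9.05 CPM). The arterial test of the age difference (2) gave 1 to 2 with 1 library left out and 1 with doublets kept, thinned sums, at resolution 1.0, or with a capillary-like cluster led by hemoglobin genes counted as capillary, an alternative chosen after seeing the data. The venous one (2) gave 1 to 2 with 1 library left out and 1 with DESeq2, at least 1000 genes per cell, thinned sums or resolution 1.0. The cause was not tested.

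With the replicate block, capillaries gave 1 call by age in place of 3 (Ptgs2 2.61, adjusted p = 0.01; Pla2g4a 0.93, 0.0622; Hpgd 1.97, 0.17) and venous cells gave 2 in place of 1. Deviations of same-numbered libraries correlated at 0.074, 0.337 and -0.059 in capillaries, 0.12, 0.209 and -0.021 in arterial and 0.126, 0.258 and 0.005 in venous cells: number 2 correlated and number 3 did not, and the numbers were not taken as pairs. In each of these classes 2 of 3 numbers correlated best with their own. Over all genes the block moved the calls by age from 546 to 145 in capillaries, 129 to 208 in pericytes, 13 to 7 in smooth muscle and 134 to 60 in microglia.

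Counts over all genes also moved by over 1.5 times. Thinned sums, 1 random draw that lowers depth by construction, gave 2714 for 4174 (arterial against capillary), 2816 for 4779 (venous against capillary), 1126 for 3821 (smooth muscle against pericytes; 1730 with less endothelial RNA), 1014 for 2652 (pericytes against capillary) and, by age, 277 for 546 in capillaries, 164 for 259 in venous cells, 3 for 129 in pericytes, 4 for 13 in smooth muscle and 69 for 134 in microglia, and 185 for 348 in the venous test of the age difference. No filter gave 1124 for 546, 299 for 43, 678 for 259, 258 for 129, 85 for 13 and 307 for 134 by age (capillary, arterial, venous, pericyte, smooth muscle, microglia) and 286 for 112 in the arterial test of the age difference. DESeq2 gave 91 for 43 (arterial), 60 for 129 (pericytes) and 225 for 348 (venous test). Doublets kept gave 85 (arterial), 50 (pericytes), 80 (microglia) and 170 (venous test), at least 1000 genes per cell 21 (pericytes) and 8 (smooth muscle), resolution 1.0 gave 60 for 112, and less endothelial RNA 0 (pericytes) and 76 (microglia). Leaving out 1 library gave 265 to 979 in capillaries, 14 to 99 in arterial cells, 93 to 477 in venous cells, 10 to 282 in pericytes, 4 to 23 in smooth muscle, and as low as 79 in microglia, 45 in the arterial and 100 in the venous test.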
